A study of Mus musculus with 4 samples.

Results

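The genes described here are the receptor chains, kinases, transcription factors and feedback inhibitors through which thymocytes read interleukin-7 (IL-7) and related cytokines. The members were Il7r, Il2rg and Il4ra among the receptors, Jak1 and Jak3 among the kinases, Stat3, Stat5a and Stat5b among the transcription factors, and Socs1 and Socs3 among the inhibitors. They were picked by name, and every probe set whose platform annotation gave a member symbol alone was taken. This gave 21 probe sets for 9 of the 10 genes, out of 18193 genes named on the array. The annotation used here listed no probe set under Il2rg alone, so that gene is not analysed here. The samples were total RNA of total thymocytes, 1 Affymetrix array per mouse, from 2 mice with a hypomorphic Atg16l1 allele and 2 control mice, all aged 7 weeks. A hypomorphic allele leaves a gene with reduced function, and Atg16l1 encodes a protein needed to attach LC3 to membranes in autophagy. The labels give neither the strain nor how the allele was made, and the description field of the samples calls the comparison mice wild type.

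IL-7 binds a receptor made of the IL-7 receptor alpha chain, encoded by Il7r, and the common gamma chain. JAK1 sits on the alpha chain and JAK3 on the common gamma chain, and once brought together they phosphorylate STAT5, which moves to the nucleus and binds DNA at TTCNNNGAA elements. In the thymus IL-7 keeps the early, double-negative precursors alive, Il7r is shut off in most double-positive thymocytes and returns in single-positive cells, and SOCS1 restrains the pathway in double-positive cells.

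The promoters of 3 genes are shown because these windows hold matches to an element of the pathway's own transcription factors or of factors known to switch on Il7r. Each window runs from 250 bases before to 50 bases after the annotated start in RefSeq (build GRCm38.p6), and all 9 member genes had at least 1 such window, 11 in all. The motifs searched, on both strands, were the STAT element TTCNNNGAA, which reads the same on either strand, and the ETS element CAGGAAGT, bound by ETS family factors such as GABPA. Capitals mark the matches.
Il7r: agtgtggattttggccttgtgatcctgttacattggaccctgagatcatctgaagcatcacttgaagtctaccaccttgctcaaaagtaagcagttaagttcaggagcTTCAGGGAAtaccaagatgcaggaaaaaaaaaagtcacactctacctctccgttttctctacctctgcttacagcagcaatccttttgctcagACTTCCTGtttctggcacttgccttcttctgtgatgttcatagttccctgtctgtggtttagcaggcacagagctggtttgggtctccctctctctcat
Socs3: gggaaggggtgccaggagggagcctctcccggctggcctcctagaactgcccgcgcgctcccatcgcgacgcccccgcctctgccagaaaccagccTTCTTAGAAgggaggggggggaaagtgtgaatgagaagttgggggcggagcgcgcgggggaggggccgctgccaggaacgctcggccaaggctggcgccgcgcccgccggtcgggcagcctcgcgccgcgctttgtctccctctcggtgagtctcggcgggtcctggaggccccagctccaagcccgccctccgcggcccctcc
Cish: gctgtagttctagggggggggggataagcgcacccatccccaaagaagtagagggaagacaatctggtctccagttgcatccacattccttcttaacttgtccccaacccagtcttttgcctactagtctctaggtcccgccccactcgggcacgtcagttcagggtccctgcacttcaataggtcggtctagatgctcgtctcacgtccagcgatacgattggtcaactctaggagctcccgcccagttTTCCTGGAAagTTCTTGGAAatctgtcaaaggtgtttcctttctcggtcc
The Il7r window (chr15:9529827-9530126, minus strand) holds 1 match to each motif, the ETS one as its reverse complement. The Socs3 window (chr11:117969317-117969616, minus strand) holds 1 STAT match, and that of Cish (chr9:107296409-107296708, plus strand), a STAT5 feedback gene that is no member, holds 2. No other member window held either motif. Of 32851 promoter windows in the RefSeq table, 8.30% held the STAT motif and 3.33% the ETS motif, set beside 2 and 1 of the 11 member windows. A match is a run of letters and was not tested as a binding site.

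Stat5b, Stat5a and Stat3 lie next to each other on chromosome 11 in the RefSeq gene order, 1 place apart, and Socs3 lies on the same chromosome. No member lies on chromosome 1 with Atg16l1. Stat5a and Stat5b are close copies, and 1 RefSeq start window of each shares a run of 16 bases with the other, in capitals in the lines that follow.
Stat5a: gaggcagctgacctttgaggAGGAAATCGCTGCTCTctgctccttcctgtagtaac
Stat5b: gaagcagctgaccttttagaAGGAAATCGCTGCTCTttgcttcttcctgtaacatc
These stretches are at chr11:100860432-100860487 on the plus strand and chr11:100822558-100822613 on the minus strand. The shared run lies before the annotated start in both windows, so it does not show whether probes on the array match both genes. Signals of such a pair may be partly shared where probes do, which was not examined and which the deposited table does not resolve.

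The deposited signals had medians of 23.5 to 38.4 per array, so arrays were brought to a shared median after log2(signal + 2.29), and signals given below are these centred ones, turned back to the linear scale. A dim probe set of Atg16l1 was not tested, with 4.88 and 8.18 on the hypomorph arrays, against 12.6 and 0.44 on the control arrays. On its brighter probe set Atg16l1 had 78.2 and 70.8 on the hypomorph arrays, against 212 and 241 on the control arrays. The log2 difference (hypomorph minus control) there was -1.57 ± 0.18 (SE, n = 2 each, limma adjusted p = 0.0142). Its adjusted p was 0.0751 when control replicate 1 was left out, 0.0893 when control replicate 2 was, and 0.000107 to 0.274 over all alternatives. The female-specific transcript Xist had centred signals of 34.1 and 3435 on hypomorph replicates 1 and 2, against 33.9 and 2914 on control replicates 1 and 2, and the Y-linked Eif2s3y had 512 and 4.52 on the hypomorph arrays, against 530.3 and 3.43 on the control arrays. The series text lists 1 male and 1 female per group, and no sex was assigned to an array here. Thymocyte markers with a probe set, 12 of 14 listed, summed to 38958 and 44810 on the hypomorph arrays, against 37071.5 and 43159.5 on the control arrays, and no marker was at 0. The 6 of 7 B cell genes with a probe set summed to 412 and 429.6 in hypomorphs, against 509 and 628 in controls, and the 8 dendritic cell genes to 3172 and 3249 in hypomorphs, against 4049 and 3630.3 in controls. The 7 macrophage genes summed to 543 and 325 in hypomorphs, against 593 and 506 in controls, and the 6 innate-like T cell genes to 508 and 513 in hypomorphs, against 692 and 612 in controls. These 4 lists were thus lower in sum on both hypomorph arrays except for macrophage genes, where hypomorph replicate 1 lay between the controls. Within the B cell list, Cd79a, Ms4a1 and Cd22 were at log2 differences of -0.63, -0.63 and -0.48, without overlap of the groups. Cd79b and Blnk were at -0.39 and -0.10, with overlapping groups. Pax5 went the other way, at 0.45, with both hypomorph arrays above both control arrays. The dendritic sums came mostly from Cd74 and the MHC class II genes H2-Aa, H2-Ab1 and H2-Eb1. Of the other dendritic genes, Ccl17 and Ciita were at log2 differences of -0.99 and -0.60. Flt3 was at -0.17 and Itgax at 0.15, both with overlapping groups. Of the macrophage genes, Csf1r and C1qa were at -0.54 and -0.57 without overlap. C1qc, C1qb, Cd68 and Adgre1 were at -0.83, -0.31, -0.07 and 0.02 with overlapping groups, and Mertk was not tested. Of the innate-like genes, Tbx21, Nkg7 and Maf were at -0.61, -0.52 and -0.47 without overlap. Zbtb16, Klrd1 and Il2rb were at -0.33, -0.27 and 0.04 with overlapping groups. The 8 of 9 granulocyte genes summed to 2127 and 3549 in hypomorphs, against 625 and 5553 in controls. For 7 of 8 genes listed for single-positive cells, Il7r among them, the sums were 8122 and 8919 in hypomorphs, against 8828 and 9104 in controls. Most of these sums came from Ccr9, with 5230 and 5545 in hypomorphs, against 6172 and 6349 in controls. The sums thus mostly follow Ccr9 and cannot be read as the level of single-positive cells. The Ccr9 probe set carries the Affymetrix name ending for sets in which some probes also match other transcripts. Ccr9 and Itgae were at log2 differences of -0.22 and -0.20. Ccr7, Gimap6, Il7r, S1pr1 and Klf2 were at 0.32, 0.27, 0.24, 0.09 and 0.08. The 7 genes listed for double-negative cells, Il7r among them, summed to 5424 and 6045 in hypomorphs, against 5539 and 5231 in controls. Most of this came from Bcl11b, at 0.03. Kit, Gata3 and Notch1 were at 0.77, 0.29 and 0.22, and Il2ra and Hhex at -0.17 and -0.60. Of 8 double-positive genes, 7 had a probe set and summed to 19481 and 22510 in hypomorphs, against 18682 and 22177 in controls. None of the markers in these lists passed the adjusted threshold, and their part in the members' values was not tested. In such bulk samples fewer cells of a type and less RNA per cell cannot be told apart.

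None of the 20 tested member probe sets differed between hypomorph and control thymocytes past an adjusted p of 0.05 in limma, where 0.0622% of the 22519 probe sets tested did, 0.0488% higher and 0.0133% lower. Their adjusted p-values ran from 0.260 to 0.889. At an unadjusted p under 0.05 there was 1 higher and 0 lower member probe set, while 14.9% of all tested probe sets were higher at that level and 1.19% lower. That probe set was the brighter one of Stat5b. After quantile normalization and after centring over tested probe sets there were 0 higher and 1 lower, the brightest Socs3 probe set (unadjusted p = 0.00911 and 0.00901), so the direction of this count turned with the scaling. Of all probe sets at that level 92.6% were higher as reported, 45.6% after quantile normalization and 49.5% after centring over tested probe sets. There were 0 without control replicate 1, 3 higher without control replicate 2, and 2 higher without hypomorph replicate 2. Without hypomorph replicate 1 there was 1 higher, the brighter Il7r probe set, and 1 lower, the brightest Socs3 probe set. The log2 differences of the members ran from -0.36 to 0.52 with a median of 0.16, against a median of 0.21 over the 10235 tested genes and 0.18 over the tested probe sets. Although 17 of the 20 were above 0, as were 75.6% of all tested probe sets, 14 lay below the median of the tested genes and 6 above it. Differences are therefore given both against 0 and, where it matters, against that median.

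**Figure D1:**
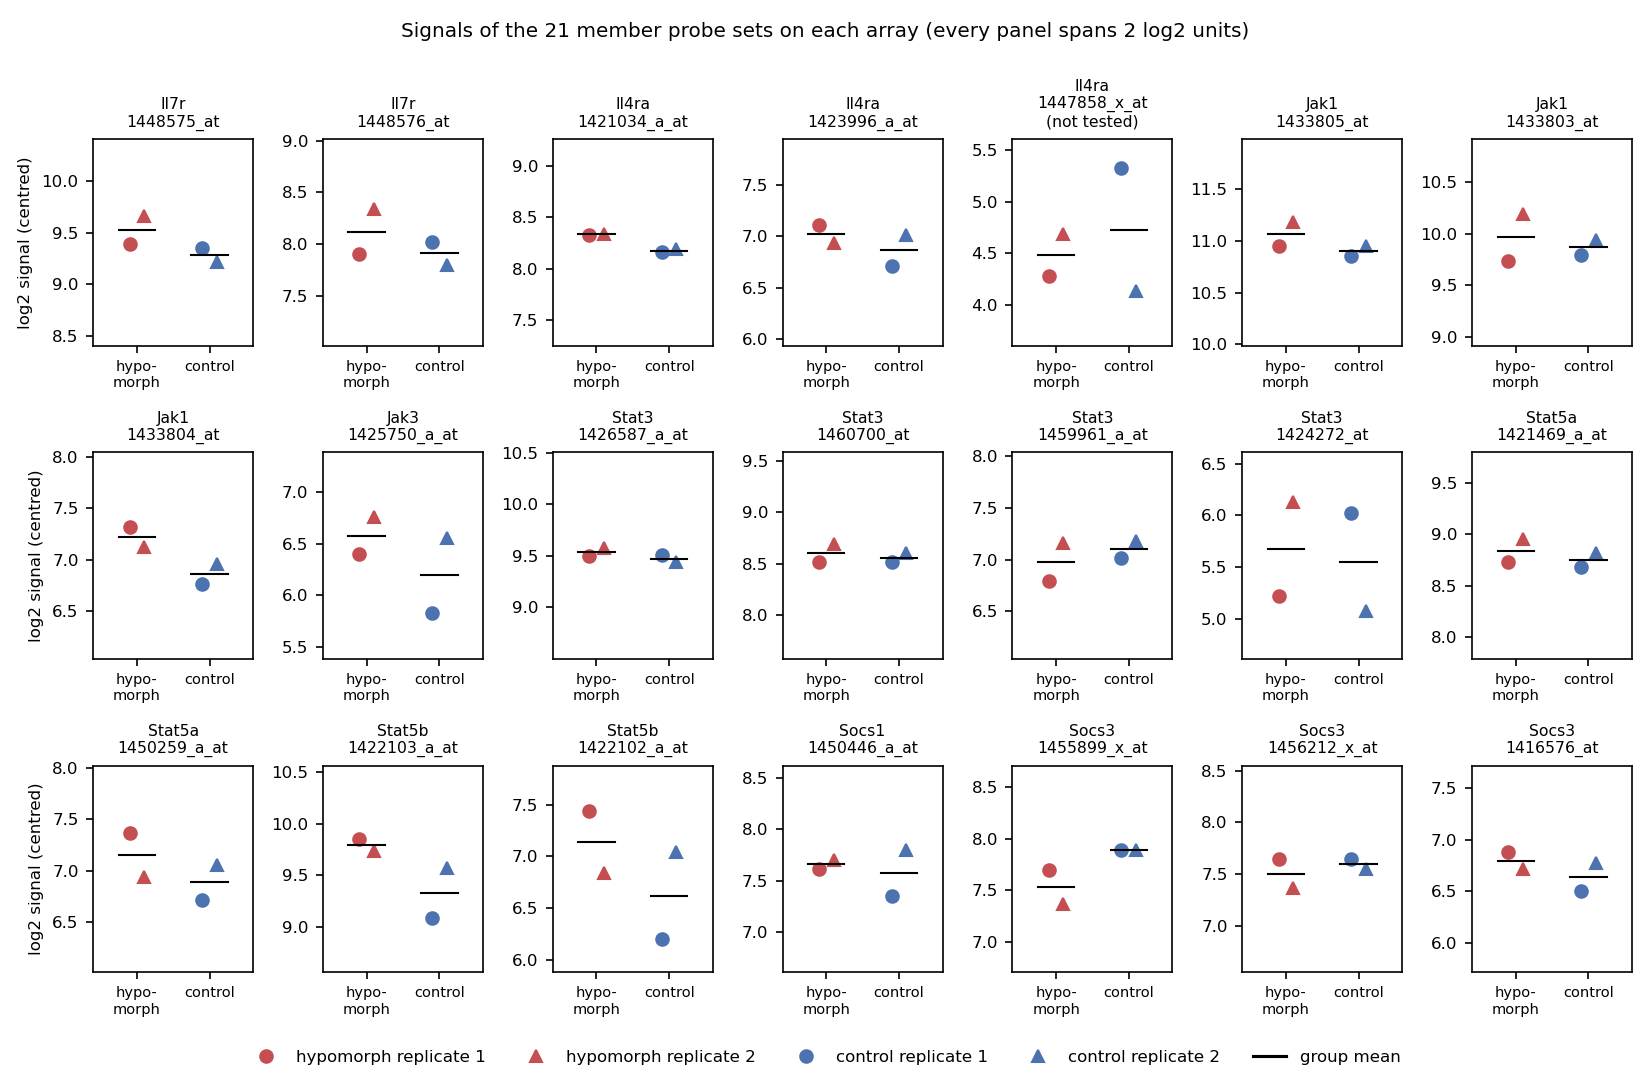
Centred log2(signal + 2.29) of the 21 member probe sets, 1 panel each, with hypomorph arrays on the left in red and control arrays on the right in blue, circles for replicate 1, triangles for replicate 2 and a black line at each group's mean. All panels span 2 log2 units, and in 15 of the 20 tested probe sets the points of the groups overlap.

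Most group differences were no larger than the gaps between animals. The 2 groups of arrays did not overlap in 4 tested probe sets with the hypomorphs higher and in 1 with the hypomorphs lower, which compares with 43.8% and 7.04% of all tested probe sets. For 17 of the 20 the group difference was smaller than the larger of the gaps between animals of 1 group. The share of all tested probe sets for which this holds was not computed, so the count cannot be read as particular to the members. Control replicate 1 was the lowest array in 11 of the 20, and in 48.8% of all tested probe sets. Hypomorph replicate 2 was the highest in 10, and in 44.4% of all tested probe sets. With 2 arrays against 2 an exact permutation test cannot give a p below 0.333, so the limma p-values rest on a variance model shared across probe sets.

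Where a gene has several probe sets they are taken from the brightest down, the order in which the plots list them. Among the receptor chains, Il7r stood close to the median tested gene on both of its probe sets with all 4 arrays in the fit. The brighter one had centred signals of 669 and 808 in hypomorph thymocytes, against 652 and 594 in control thymocytes. Both hypomorph arrays were above both control arrays, though hypomorph replicate 1 only barely so. The log2 means were 9.53 ± 0.19 in hypomorphs and 9.29 ± 0.09 in controls (SD, n = 2 each), a log2 difference of 0.24 ± 0.14 (SE; limma, adjusted p = 0.402), or 1.18-fold with a 95% confidence interval of 0.949 to 1.47. The other Il7r probe set had 237 and 321 in hypomorphs, against 258 and 221 in controls. There the groups overlapped, and the log2 difference was 0.21 (adjusted p = 0.556). Set against the median tested gene, the probe sets stood at 0.03 and -0.0045. The brighter one was at 0.37 without hypomorph replicate 1 (limma, unadjusted p = 0.0489, adjusted p = 0.314) and at 0.10 without hypomorph replicate 2, and its adjusted p ran from 0.261 to 0.995 over all alternatives. The dimmer one was at 0.42 without hypomorph replicate 1 and -0.012 without hypomorph replicate 2.

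Il4ra encodes the alpha chain shared by the receptors of IL-4 and IL-13, which signal mainly through STAT6. Its brightest probe set had 319.7 and 322 in hypomorphs, against 284 and 291 in controls. These were the tightest replicates of the receptors, and the groups did not overlap. The log2 difference was 0.16 ± 0.14 (SE; adjusted p = 0.567), within a 95% interval of -0.15 to 0.47. A second probe set was also at 0.16 (adjusted p = 0.693), with 135 and 119.6 in hypomorphs overlapping 102 and 127 in controls. The third was dim, with 17.1 and 23.4 in hypomorphs, against 37.8 and 15.2 in controls, and was not tested.

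Jak1 and Jak3 encode the kinases bound to the cytokine-specific chain and to the common gamma chain. The brightest Jak1 probe set had 1979.5 and 2325 in hypomorphs, against 1849 and 1982 in controls. Hypomorph replicate 1 lay between the controls there. The log2 difference was 0.16 ± 0.14 (SE; limma, adjusted p = 0.555). On its second probe set Jak1 had 849 and 1171 in hypomorphs, against 886 and 983 in controls, a log2 difference of 0.10 (adjusted p = 0.779). The dimmest of its probe sets had 157 and 137 in hypomorphs, against 106 and 122 in controls. It was the one Jak1 probe set whose groups did not overlap, at 0.36 ± 0.19 (SE; adjusted p = 0.350). The Jak1 probe sets thus spanned 0.26 log2 units among themselves.

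Jak3 had a single probe set, with 82.2 and 106 in hypomorphs, against 54.6 and 91.8 in controls. The groups overlapped, and control replicate 1 stood apart from the other 3 arrays. The log2 means were 6.58 ± 0.25 in hypomorphs and 6.19 ± 0.51 in controls (SD, n = 2 each), a log2 difference of 0.38 ± 0.27 (SE; adjusted p = 0.474). Without control replicate 1 the difference was 0.02, and without control replicate 2 it was 0.75.

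Of all member genes, Stat5b had the highest log2 differences, and neither of its probe sets passed the adjusted threshold. Stat5b and Stat5a encode the main transcription factors downstream of the IL-7 receptor, and STAT5B is also the chief relay of growth hormone signalling in liver. The brighter Stat5b probe set had 924 and 850.2 in hypomorphs, against 543 and 760.4 in controls. Both hypomorph arrays were above both controls, and control replicate 1 was the lowest. The log2 means were 9.80 ± 0.08 in hypomorphs and 9.33 ± 0.34 in controls (SD, n = 2 each). The log2 difference of 0.46 ± 0.17 (SE), or 1.38-fold with a 95% interval of 1.07 to 1.77, was the one with an unadjusted p under 0.05 (0.0174) and had an adjusted p of 0.260 in limma. It was 0.25 above the median tested gene. The second Stat5b probe set had 172 and 112 in hypomorphs, against 71.1 and 129.8 in controls. Its log2 difference was 0.52 ± 0.29 (SE; adjusted p = 0.375), with overlapping groups. Without control replicate 1 these values were 0.22 and 0.10, and without control replicate 2 they were 0.71 and 0.94. The second was at 0.22 without hypomorph replicate 1 and 0.82 without hypomorph replicate 2. After quantile normalization the values were 0.22 and 0.37. Neither was called under any alternative, with adjusted p-values of 0.162 to 0.786 for the first and 0.195 to 0.948 for the second.

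Stat5a is its neighbour and close copy. The brighter Stat5a probe set had 422 and 492 in hypomorphs, against 409 and 448 in controls, and the order of the arrays mixed the groups. Its log2 difference was 0.09 ± 0.14 (SE; adjusted p = 0.761). The other had 163 and 120.4 in hypomorphs, against 103 and 131 in controls, at 0.26 ± 0.21 (SE; adjusted p = 0.529). The difference between Stat5a and Stat5b was not tested.

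Stat3, which relays IL-6 and IL-10 family cytokines, had log2 differences near 0. On the brightest probe set it had 718 and 761 in hypomorphs, against 723 and 689 in controls. All 4 arrays lay close together, and the log2 difference was 0.07 ± 0.13 (SE; limma, adjusted p = 0.804), with a 95% interval for the fold of 0.861 to 1.27. The second was at 0.04 (adjusted p = 0.889), with 363 and 411 in hypomorphs, against 363 and 386 in controls. The third was at -0.12 (adjusted p = 0.765), with 109 and 141 in hypomorphs, against 127 and 143 in controls. On the dimmest the arrays of each group lay far apart, with 34.9 and 67.7 in hypomorphs, against 62.7 and 31.5 in controls (log2 difference 0.12 ± 0.39 SE, adjusted p = 0.887). Relative to the median tested gene the 4 Stat3 probe sets lay at -0.14, -0.17, -0.33 and -0.09.

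The feedback inhibitors SOCS1 and SOCS3 bind activated receptors or JAKs and are themselves induced by STATs. Socs1 had a single probe set, with 194 and 206 in hypomorphs, against 161 and 219.9 in controls. The controls spanned the hypomorphs, and the log2 difference was 0.09 ± 0.18 (SE; adjusted p = 0.820). Cish, the STAT5-induced inhibitor whose promoter window holds 2 STAT matches, was likewise near 0, with 112 and 119.7 in hypomorphs, against 122 and 105 in controls (log2 difference 0.03 ± 0.19 SE, adjusted p = 0.951).

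Socs3 was the one member whose brightest probe set had a log2 difference below 0, and its probe sets differed in sign. The brightest had 205 and 162 in hypomorphs, against 234.9 and 235 in controls. The control arrays were almost identical, and both hypomorph arrays lay below them. The log2 difference was -0.36 ± 0.17 (SE; limma, adjusted p = 0.315), 0.777-fold with a 95% interval of 0.601 to 1.01, and it was -0.57 relative to the median tested gene. The second had 198 and 163 in hypomorphs, against 198 and 185 in controls, at -0.10 (adjusted p = 0.789). The third had 115 and 103 in hypomorphs, against 88.8 and 107 in controls, at 0.15 (adjusted p = 0.706). The first pair carry the Affymetrix name ending for probe sets in which some probes also match other transcripts. The Socs3 probe sets spanned 0.52 log2 units, the widest spread within any member gene. The brightest had an unadjusted p of 0.0541. Over the alternatives its unadjusted p was 0.00901 to 0.925 and its adjusted p 0.258 to 0.945.

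**Figure D2:**
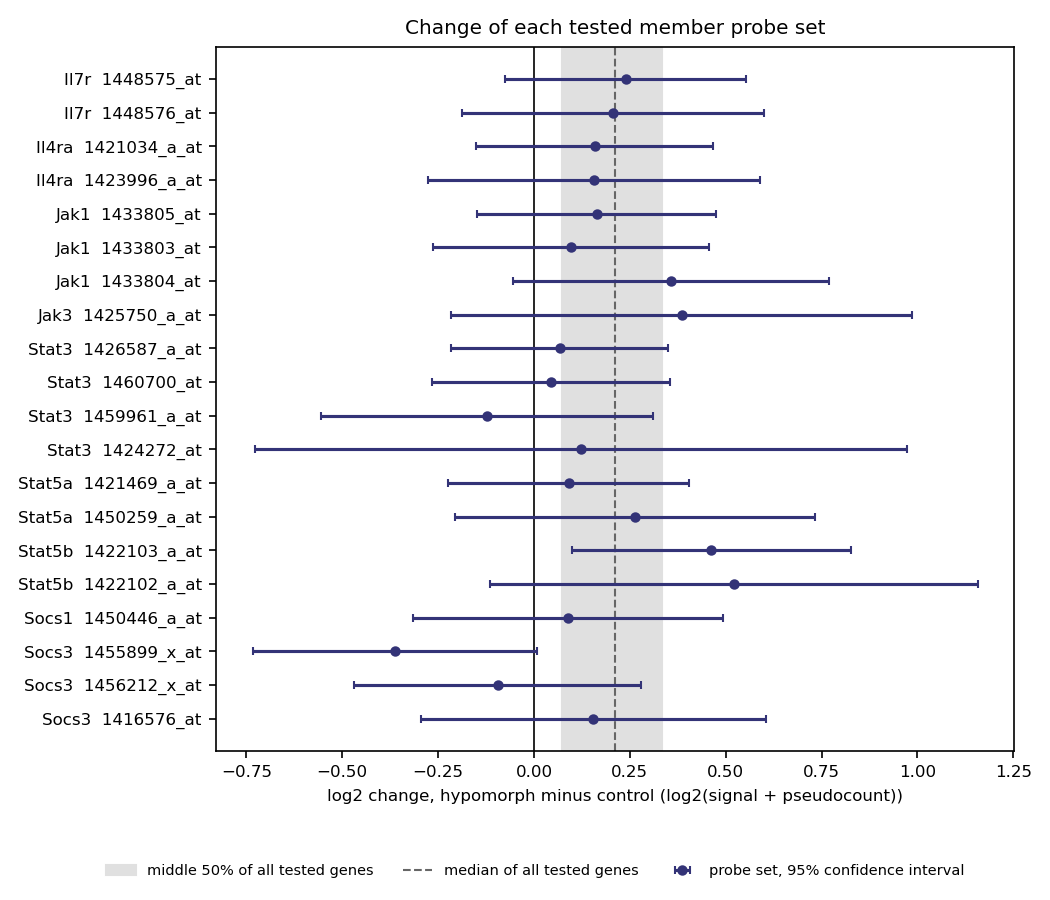
Log2 change (hypomorph minus control) of each of the 20 tested member probe sets with its 95% confidence interval from limma, 2 arrays per group. The dashed line is the median of the 10235 tested genes (0.21), the grey band their middle 50% (0.07 to 0.33), and the brighter Stat5b probe set is the one whose interval leaves out 0.

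Wider lists of the pathway were examined by role. Of 87 further genes with a probe set in these lists, 71 were tested, each by its brightest probe set. No gene of the lists passed the adjusted threshold (limma, adjusted p-values 0.242 to 0.997), where 0.0391% of tested genes did. At an unadjusted p under 0.05 there were 6 higher and 1 lower, against 18.2% and 0.889% of all tested genes. Without control replicate 1 there were 3 in all. Their median log2 difference was 0.15, and 23 of the 71 lay above the median tested gene and 48 below it. With quantile normalization 0 were higher and 5 lower at that level, and with centring on the tested probe sets 0 and 4, so the direction of these counts rests on the scaling.

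Among 26 other cytokine receptors 22 were tested, with a median log2 difference of 0.12. At an unadjusted p under 0.05, where 18.2% of all tested genes were higher and 0.889% lower, 0 receptors were lower and 1 was higher. This was Tgfbr1, a chain of the TGF-beta receptor, with 1108 and 1033 in hypomorphs, against 686 and 890.3 in controls (log2 difference 0.45 ± 0.15 SE, adjusted p = 0.247). Il21r, which pairs with the common gamma chain, had 452 and 366 in hypomorphs, against 280.5 and 365 in controls (0.34 ± 0.17 SE, adjusted p = 0.334). Il18r1 rested on hypomorph replicate 1, with 129 and 46.3 in hypomorphs, against 44.8 and 56.8 in controls (0.60 ± 0.39 SE, adjusted p = 0.442). Crlf2, which pairs with the Il7r product in the TSLP receptor, was at 0.24 (adjusted p = 0.487) and Tgfbr2 at 0.23 (adjusted p = 0.491). The IL-2 receptor chains, named for their role, were at -0.17 for Il2ra (adjusted p = 0.725) and 0.04 for Il2rb (adjusted p = 0.940). Of 13 cytokine genes, Il7 among them, 12 were too dim to be tested, and Osm was at -0.15 (adjusted p = 0.794).

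The 7 other kinases and STATs with a probe set lay between 0.05 and 0.25, with a median of 0.12. None was at an unadjusted p under 0.05, where 18.2% of all tested genes were higher and 0.889% lower. Jak2 was at 0.25 (adjusted p = 0.424), Stat4, which relays IL-12, at 0.24 (adjusted p = 0.530) and Tyk2 at 0.08 (adjusted p = 0.832). The phosphoinositide 3-kinase subunit genes Pik3cd and Pik3r1 were at 0.15 and 0.12 (adjusted p = 0.581 and 0.673).

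Of 20 negative regulators, all tested, 4 were higher at an unadjusted p under 0.05, where 18.2% of all tested genes were, and 0 were lower. The list median was 0.19. Socs7 had 323 and 356 in hypomorphs, against 242 and 269 in controls, with no overlap of the groups (log2 difference 0.41 ± 0.15 SE, adjusted p = 0.265). Socs6 had 154 and 135 in hypomorphs, against 109 and 105 in controls (0.42 ± 0.18 SE, adjusted p = 0.300). Socs4 was at 0.36 (adjusted p = 0.292), Pias2, a SUMO ligase that binds STATs, at 0.38 (adjusted p = 0.300) and the ERK phosphatase gene Dusp6 at 0.29 (adjusted p = 0.390). With quantile normalization Socs7, Socs6, Socs4 and Pias2 were at 0.18, 0.25, 0.11 and 0.18, and none of the list was higher at an unadjusted p under 0.05. The genes that were lower at that level under this scaling, named after their values were seen, were the phosphatase genes Ptpn6 (-0.32, adjusted p = 0.713) and Ptpn22 (-0.28, adjusted p = 0.719) and the ubiquitin ligase gene Cbl (-0.30, adjusted p = 0.612).

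Among 14 genes known as targets of IL-7 or STAT5 signalling, the median log2 difference was 0.10. At an unadjusted p under 0.05, 1 was higher, where 18.2% of all tested genes were. This was the survival kinase gene Pim3, with 270.2 and 295 in hypomorphs, against 213 and 209 in controls (0.42 ± 0.15 SE, adjusted p = 0.262). Its relatives Pim2 and Pim1 were at 0.29 and 0.26 (adjusted p = 0.422 and 0.443), the glucose transporter gene Slc2a1 at 0.37 (adjusted p = 0.339) and Bcl2l1, which encodes the survival factor BCL-XL, at 0.24 (adjusted p = 0.403). Bcl2 and Mcl1, named for their role as survival genes downstream of IL-7, were at 0.12 and 0.08 (adjusted p = 0.734 and 0.789). The Pim3 and Mcl1 probe sets carry the Affymetrix name ending for sets in which some probes also match other transcripts.

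Of 9 factors linked to control of Il7r, 1 was lower at an unadjusted p under 0.05 and 0 higher. Among all tested genes 0.889% were lower and 18.2% higher at that level. Bach2, a transcriptional repressor of lymphocytes, had 336 and 404 in hypomorphs, against 485 and 573 in controls, with no overlap. Its log2 difference was -0.51 ± 0.15 (SE; limma, adjusted p = 0.242), -0.72 relative to the median tested gene and -0.76 with quantile normalization. Gfi1, a repressor of Il7r, was at 0.23 (adjusted p = 0.402). The ETS factor gene Ets1 was at 0.20 (adjusted p = 0.476), Foxo1, an activator of Il7r, at 0.17 (adjusted p = 0.548) and Ikzf1 at 0.16 (adjusted p = 0.587). Gabpa, whose product binds ETS elements of the kind matched in the Il7r window, was at 0.13 (adjusted p = 0.632).

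**Figure D3:**
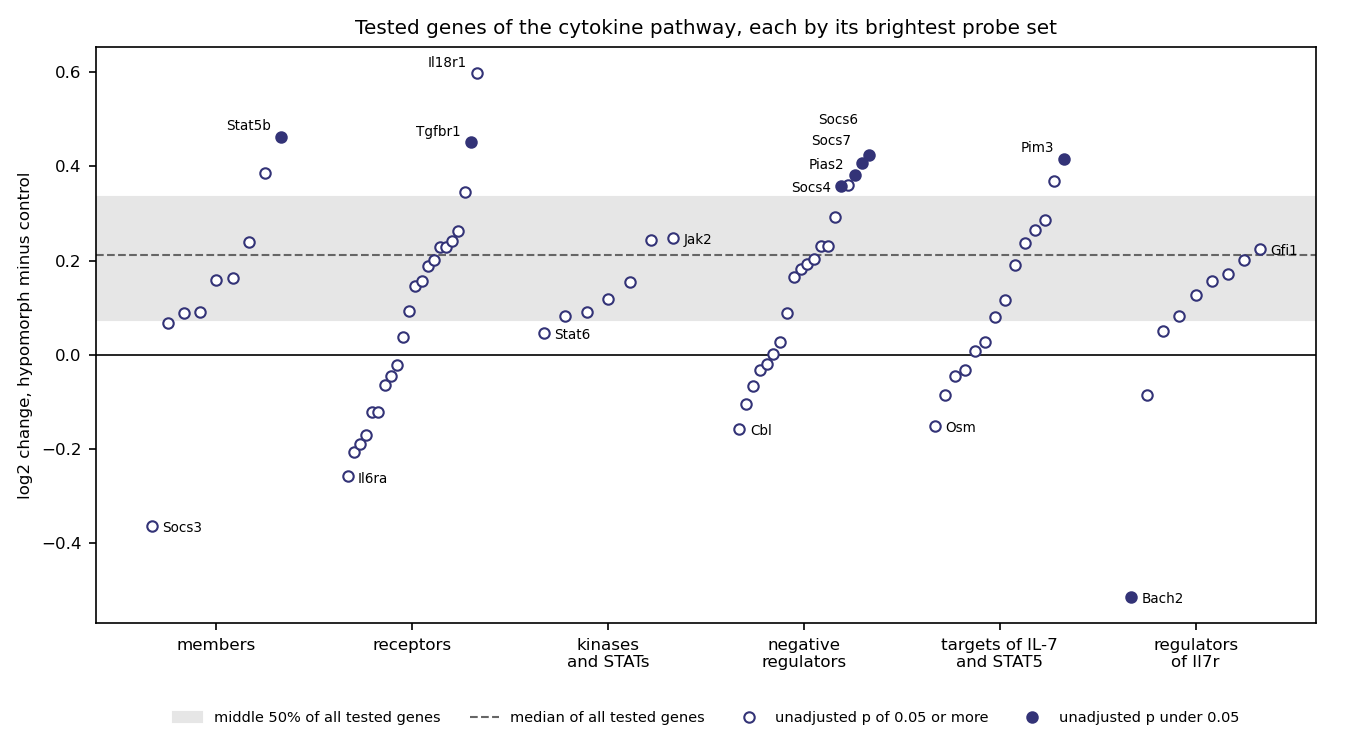
Log2 change (hypomorph minus control) of the tested members and of 5 pathway lists, each gene by its brightest probe set and ordered within its list, filled where the unadjusted p was under 0.05. The dashed line and grey band are the median (0.21) and the middle 50% of all tested genes, and 48 of the 71 list genes lie below the dashed line.

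The sign of most member differences depended on the scaling. In all, limma called 14 probe sets on the array, 11 higher and 3 lower. With quantile normalization it called 3 higher and 1 lower, with centring on the tested probe sets 4 and 3, and on uncentred values 73 and 11. The median tested gene was at 0.21 as reported, at 0.02 with quantile normalization, at 0.04 with centring on the tested probe sets and at 0.54 without centring. The number of tested member probe sets above 0 was 17 as reported, 19 without centring, 7 after centring over tested probe sets and 6 after quantile normalization. Both Stat5b probe sets, Jak3, the dimmest Jak1 probe set and the dimmer Stat5a probe set were above 0 under all 3 other scalings, and the brightest Socs3 probe set was below 0 under all 3.

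**Figure D4:**
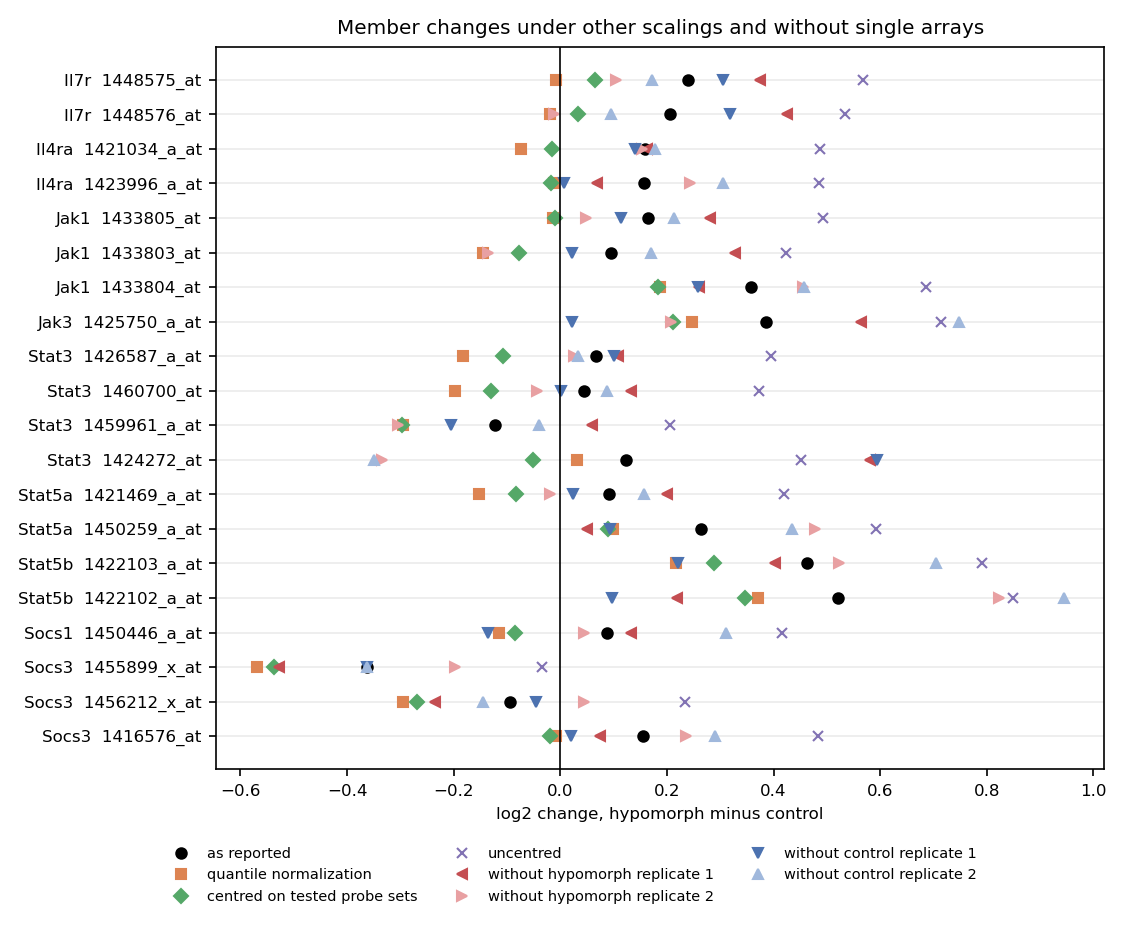
Log2 change (hypomorph minus control) of the 20 tested member probe sets as reported (black), under 3 other scalings and with each array left out in turn. Symbols for quantile normalization lie left of 0 for 14 probe sets, symbols for uncentred values lie right of 0 for 19, and the Stat5b symbols lie right of 0 throughout.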

How the data were processed

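The authors deposited 1 intensity per probe set and array on a linear scale, made with GCOS (Affymetrix software) per the submitters' processing notes; how GCOS was set is not given in those notes as used here. Of 45101 probe sets, 64 controls were left out. The pseudocount in log2(signal + 2.29) is the 10th percentile of the signals, so differences understate those of dim genes. Array medians spanned 0.66 log2 units and were made equal. The 22519 probe sets whose mean log2 signal reached the median were tested with limma 3.58.1 in R 4.3.3 (lmFit, eBayes with a variance trend, two-sided, no covariates), with Benjamini-Hochberg adjustment over all of them at 0.05. The procedure was tested on simulated data with independent noise, added changes and no shift shared by an array. That test cannot speak for array-wide differences, and its outcome is not given here. A gene name was taken from a probe set with a single symbol (34945 of 45037, while 932 had several and 9160 none). All member probe sets are given, and from each list the genes past the threshold or, where none passed, up to 5 with the smallest unadjusted p. Il2ra, Il2rb, Cish, Bcl2, Mcl1 and Gabpa fall outside that rule and were added for their role after their values were seen. Members and lists were chosen with earlier results of these data known. Precision is limited by 2 arrays per group, from animals described as independent. Alternatives were quantile normalization, equal medians over the tested probe sets, no centring, a pseudocount of 8.44 (25th percentile), no filter, no variance trend, the replicate block and leaving out each array.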

Additional observations from a re-analysis of the deposited data

How the results depend on the processing

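No member probe set was called under any of the 11 alternatives, the smallest adjusted p in limma being 0.162, without control replicate 2. Of 220 member values under them, 188 kept their sign and 32 changed it, none past the threshold. With quantile normalization the sign changed for Il7r (-0.0088 and -0.019), Il4ra (-0.073 and -0.013), the first and second Jak1 (-0.014 and -0.14) and Stat3 (-0.18 and -0.20) probe sets, the brighter Stat5a (-0.15), Socs1 (-0.11) and the third Socs3 (-0.0083). After centring over tested probe sets it changed for Il4ra (-0.016 and -0.018), the same Jak1 (-0.0099 and -0.078), the first, second and dimmest Stat3 (-0.11, -0.13 and -0.051), the brighter Stat5a (-0.083), Socs1 (-0.086) and the third Socs3 (-0.019). On uncentred values it changed for the third Stat3 (0.21) and the second Socs3 (0.23). The cause was not tested. Leaving out each array, the sign changed within -0.012 to 0.42 for the dimmer Il7r, -0.14 to 0.33 for the second Jak1, -0.045 to 0.13, -0.30 to 0.059 and -0.35 to 0.59 for the second to dimmest Stat3, -0.020 to 0.20 for the brighter Stat5a, -0.13 to 0.31 for Socs1 and -0.23 to 0.044 for the second Socs3. Such fits assume that a lone array varies like the other group.

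Calls over all probe sets, 14 as reported, were 4 after quantile normalization, 7 after centring over tested probe sets, 84 uncentred, 4 without the filter, 0 without a variance trend (limma, 2492 at an unadjusted p under 0.05) and 9 with the replicate block. They were 340 and 58 without hypomorph replicates 1 and 2, and 8 and 22 without control replicates 1 and 2. Member probe sets at an unadjusted p under 0.05, 1 as reported, were 2 uncentred, 2 without the filter, 0 without a variance trend and 0 to 3 leaving out each array, and the 1 was a lower in place of a higher probe set after quantile normalization and after centring over tested probe sets. Pathway genes at that level, 7 as reported, were 4 after centring over tested probe sets, 3 without a variance trend and 3 to 10 leaving out each array. The Atg16l1 call was lost on uncentred values (-1.25), without the filter (-1.57) and without a variance trend (-1.57), and also without control replicate 1 (-1.66) and without control replicate 2 (-1.48). Same-numbered arrays deviated together with a correlation of 0.08 across tested probe sets, although replicates of the same number were alike in Xist and Eif2s3y, and the labels do not pair them. The replicate block changed no member's call.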
